A study of Homo sapiens with 6 samples.

Results

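The genes described here are 10 genes of the NF-kB pathway: the 5 subunits NFKB1, NFKB2, REL, RELA and RELB, and 5 inhibitors, NFKBIA, NFKBIB, NFKBIE, TNFAIP3 and BIRC3. They were chosen by gene symbol, as 10 of the 74852 loci in the deposited table, and all 10 had enough reads to be tested, as 18849 loci did. The samples were MDA-MB-231, an established human TNBC cell line, transfected in 2 rounds with pooled siRNAs that either had no target (si-CTRL, 3 libraries) or targeted SAM68 (si-SAM68, 3 libraries). By the labels, cells were harvested 24 h after the second round, whereas the methods of the paper give another time, and neither source names an NF-kB stimulus such as TNF. The comparison asked how RNA of these genes differed after depletion of Sam68, an RNA-binding protein of the STAR family that is known to take part in NF-kB activation.

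NF-kB is a family of transcription factors that act as dimers of RELA, RELB or REL with p50 or p52, the processed products of NFKB1 and NFKB2. In resting cells the IkB proteins, encoded by NFKBIA, NFKBIB and NFKBIE, hold the dimers in the cytoplasm until IkB kinase marks them for degradation. Several inhibitors are themselves transcribed by NF-kB and so form a negative feedback: NFKBIA, the deubiquitinase A20 encoded by TNFAIP3, and the ubiquitin ligase cIAP2 encoded by BIRC3. Basal-like breast cancer lines such as MDA-MB-231 are known for NF-kB activity without added stimulus.

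The 6 libraries held 52625492 to 82568487 reads. KHDRBS1, the gene of Sam68, had a normalized read count (its reads, scaled by the size factor that DESeq2 gave the library) of 583 to 670.2 in si-SAM68 and of 14483 to 15660.4 in si-CTRL libraries, so that 4.13% of the si-CTRL mean was left. In si-SAM68 replicate 2 an rRNA locus took 15.1% of the reads. The line's own markers VIM, CD44, KRT8 and KRT18 were abundant, of which KRT8 and KRT18 rose in si-SAM68 cells (log2 fold changes 0.31 and 0.35, adjusted p = 0.0436 and 0.0144 from limma), and ESR1, PGR, CDH1 and EPCAM each had a mean under 10. The summed level of 8 leukocyte markers was 113022 to 117663 in si-CTRL and 107200 to 108717 in si-SAM68 libraries, nearly all of it on a locus that joins CD68 with EIF4A1, and 5 of the 8 had a mean under 10, PTPRC among them. The sum of 4 endothelial markers, with KDR at 0, was 49.4 to 76.2 and 31.3 to 35.7. That of 7 fibroblast markers, 151030 to 186327 and 143372 to 180765, overlapped between the groups. Most of it was COL1A1, with 145926 to 181387 in si-CTRL and 138281 to 175815 in si-SAM68 libraries. DCN and LUM each had a mean under 10. The samples were cultures of a cell line, and any part of other cell types in the results was not tested. Replicates are separate libraries, which the methods describe as a harvest in triplicate without saying whether transfections were separate, so that p-values measure the spread between these libraries.

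In the promoters of most of these genes lay matches to the kB consensus, the 10-base sequence that NF-kB dimers bind. RefSeq windows (GRCh38.p14) from 250 bases before to 50 bases after a transcription start were at hand for 8 of the 10 genes, and not for RELB and NFKBIE. A match on either strand was found for 7 of the 8, against 13.3% of all genes with such a window (3619 of 27305), and RELA had none in either of its windows. The sequences shown are of 5 genes whose log2 fold changes, described further on, had either sign, and of which TNFAIP3 alone passed the test. They run 5′ to 3′ on the strand of the gene, and capitals mark the matches, which overlap in REL:

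TNFAIP3, chr6:137867172-137867233, plus strand: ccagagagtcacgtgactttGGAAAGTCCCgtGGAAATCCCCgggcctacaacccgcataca

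NFKBIA, chr14:35404801-35404850, minus strand: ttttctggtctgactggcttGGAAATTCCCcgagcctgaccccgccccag

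BIRC3, chr11:102317265-102317378, plus strand: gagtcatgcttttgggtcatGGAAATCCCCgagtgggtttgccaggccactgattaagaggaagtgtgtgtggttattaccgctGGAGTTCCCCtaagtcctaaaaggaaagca

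NFKB1, chr4:102501290-102501339, plus strand: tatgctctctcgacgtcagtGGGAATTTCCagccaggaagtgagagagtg

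REL, chr2:60881507-60881557, plus strand: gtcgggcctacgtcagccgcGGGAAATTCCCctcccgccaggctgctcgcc

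TNFAIP3 held 2 matches close to each other, with their first bases at positions -67 and -55 from the transcription start, and BIRC3 held 2 that lay farther upstream, at -199 and -135. NFKBIA, NFKB1 and REL each held a single stretch, which began at -81, -49 and -47. These are matches of letters only, and binding was not measured.

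**Figure D1:**
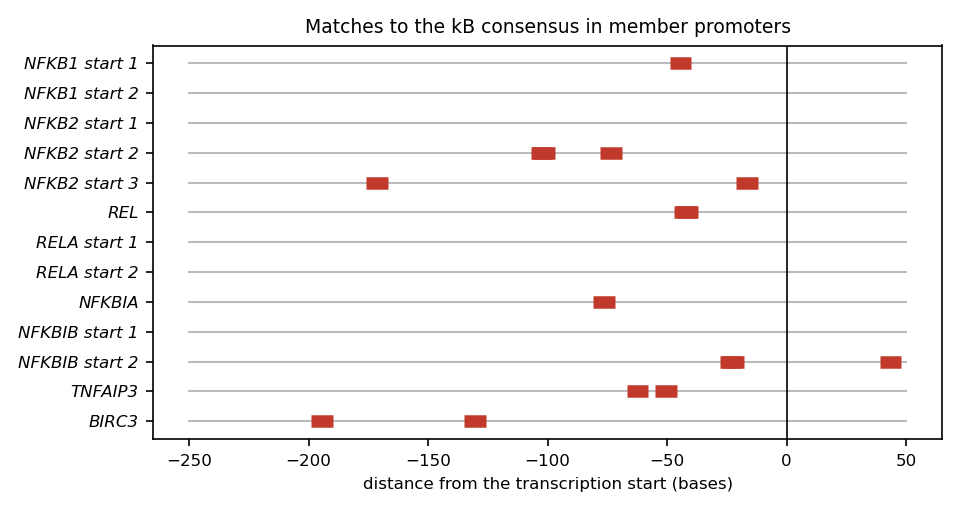
Positions of kB consensus matches (red) in RefSeq promoter windows of 8 members, plotted as distance from each listed transcription start in bases (the vertical line is the start, and grey lines are the windows searched). Matches lie upstream of the start in NFKB1, NFKB2, REL, NFKBIA, NFKBIB, TNFAIP3 and BIRC3, NFKBIB also has one at 39 bases downstream of its start 2, and both RELA windows hold none.

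Per kilobase of exon, the inhibitor NFKBIA was the most abundant of the 10 transcripts in si-CTRL cells, with 3602 ± 830.4 normalized reads per kilobase (SD, n = 3). NFKB2 (2604 ± 90.0) and RELA (1934 ± 572) followed, and the ranges of the si-CTRL libraries overlapped between these neighbours. NFKB1 (1015 ± 48.7), RELB (713 ± 14.8), TNFAIP3 (527 ± 155), BIRC3 (374 ± 60.6), NFKBIB (348 ± 87.2) and NFKBIE (188 ± 21.1) came next, and REL was lowest (38.5 ± 0.607). In this order, the libraries of TNFAIP3 overlapped those of both RELB and BIRC3, and those of BIRC3 overlapped NFKBIB. Exon lengths were taken from GENCODE, not from the annotation used for counting, and the order was the same with the length of the longest transcript. The ubiquitous subunits were therefore well above REL, the subunit known best from lymphocytes.

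Of the 10 genes, 2 passed the test in si-SAM68 vs. si-CTRL cells (limma on log2 of the normalized read count + 1, adjusted p-value under 0.05), and both fell: TNFAIP3 and RELB. None rose, although BIRC3 had a higher mean in si-SAM68 cells, with an unadjusted p-value of 0.00733 (limma). On whole reads recovered from the scaled values, edgeR called 3 of the 10 lower (RELA, RELB and TNFAIP3) and 0 higher. Its calls over all loci tested were 1167 lower and 859 higher. DESeq2 called 4 members lower (these and NFKBIA) and 1 higher, BIRC3. The DESeq2 fit also called more of all loci (1541 lower and 1248 higher, against 1175 and 842 by limma). Among all loci tested, 6.23% were called lower and 4.47% higher. Log2 fold changes were below 0 for 8 of the 10, with a median of -0.28, against a median of 0.005 over all loci. The 3 si-SAM68 libraries lay entirely above or below the 3 si-CTRL libraries in 7 of the 10 genes, a pattern found in 33.9% of all loci. The thresholds of the study (unadjusted p-value of at most 0.05 and fold change of at least 1.5) were also applied to the limma fit. The study used its own test, so its calls can differ. With limma 7.67% of loci passed them, and TNFAIP3 alone passed among the 10. The counts moved with single libraries: 4 genes were called lower without si-CTRL replicate 1, 1 when si-SAM68 replicate 2 was left out, and 0 when replicate 1 or 3 of that group was, and BIRC3 was called higher without si-CTRL replicate 1 or without si-SAM68 replicate 1. As the RNA came from whole cultures, less RNA per cell and fewer cells that express a gene cannot be told apart.

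**Figure D2:**
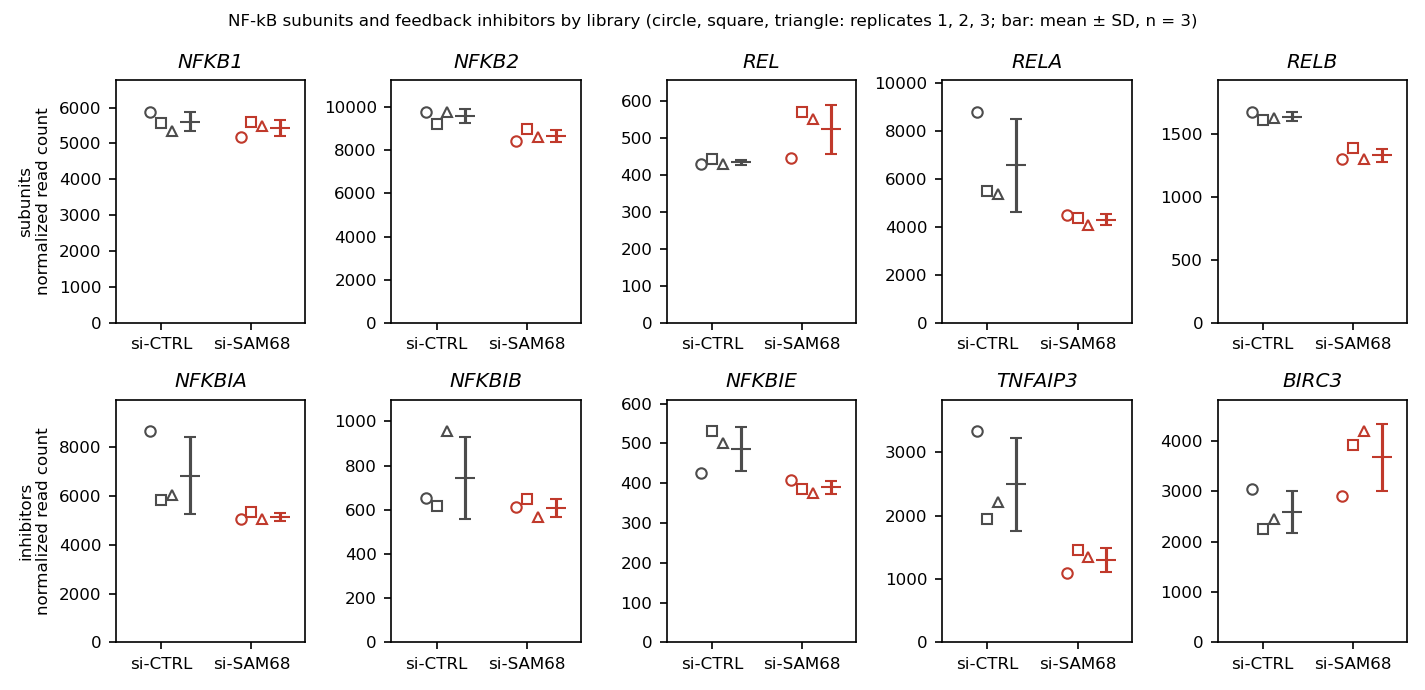
Normalized read count (y axis, from 0) of each member in the 3 si-CTRL (grey) and 3 si-SAM68 (red) libraries, subunits above and inhibitors below, with the mean and SD beside the points. NFKB2, RELA, RELB, NFKBIA, NFKBIE and TNFAIP3 are lower in every si-SAM68 library than in any si-CTRL library. RELA, NFKBIA and TNFAIP3 share a high si-CTRL replicate 1 (circle).

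TNFAIP3 (locus GSHG0026063, chromosome 6, 138188325 to 138204450, hg19) encodes A20, which removes ubiquitin chains from signalling complexes upstream of IkB kinase and so ends NF-kB activation. Its normalized read count in replicates 1, 2 and 3, in this order here and for each gene that follows, was 3332, 1952 and 2209 for si-CTRL and 1093, 1457 and 1343 for si-SAM68. Every si-SAM68 library was below every si-CTRL library. The means were 2498 ± 734 and 1298 ± 186 (SD, n = 3), a log2 fold change of -0.92 (standard error, SE, 0.183, 95% interval -1.32 to -0.51, adjusted p = 0.0141 from limma), or 1.89-fold lower. Without si-CTRL replicate 1, the highest library, the log2 fold change was -0.69 (adjusted p = 0.00286 from limma). Without si-SAM68 replicate 1 or replicate 3 the adjusted p-value was 0.0675 and 0.0696 (limma), with log2 fold changes of -0.80 and -0.95.

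BIRC3 (locus GSHG0005208, chromosome 11, 102188181 to 102210132) encodes cIAP2, which attaches ubiquitin to RIPK1 and, with TRAF2 and TRAF3, keeps the kinase encoded by MAP3K14 low. It differed in the other direction, with 3055, 2251 and 2448 in si-CTRL and 2915, 3911 and 4192 in si-SAM68 libraries. The groups overlapped, since si-SAM68 replicate 1 lay below si-CTRL replicate 1. BIRC3 had a log2 fold change of 0.50 (SE 0.149, 95% interval 0.17 to 0.84, adjusted p = 0.0600 from limma), which missed the threshold. The ratio of TNFAIP3 to BIRC3 within a library, chosen after the values were seen, was 1.09, 0.867 and 0.903 for si-CTRL and 0.375, 0.373 and 0.32 for si-SAM68. This ratio does not depend on the scaling of the libraries, and its groups did not overlap. It pairs the member with the largest fall and the one with the largest rise. Other ratios of members were also computed, and that of NFKBIE to RELA overlapped between the groups.

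NFKBIA (locus GSHG0009307, chromosome 14, 35870717 to 35873960) encodes IkB alpha, the inhibitor that is degraded and made again fastest upon activation. Its counts were 8661, 5831 and 6039 in si-CTRL and 5072, 5352 and 5058 in si-SAM68 libraries. All si-SAM68 libraries were lower, but the gap was widest to si-CTRL replicate 1, which was 1.46 times the mean of the other two. The log2 fold change of -0.38 (SE 0.135, 95% interval -0.68 to -0.08) had an adjusted p-value of 0.10 from limma. Without si-CTRL replicate 1 the log2 fold change was -0.20, with an adjusted p-value of 0.0503 (limma).

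NFKBIE (locus GSHG0026645, chromosome 6, 44225903 to 44233531), the gene of IkB epsilon, had 425, 531 and 501 in si-CTRL and 408, 386 and 374 in si-SAM68 libraries. Here too no si-SAM68 library reached the lowest si-CTRL library, replicate 1. The log2 fold change was -0.31 (95% interval -0.57 to -0.05, adjusted p = 0.119 from limma). Without si-CTRL replicate 1 it was -0.40 with an adjusted p-value of 0.0246 (limma). NFKBIB (locus GSHG0014900, chromosome 19, 39390340 to 39399541), the gene of IkB beta, had 651, 619 and 955 in si-CTRL and 610.5, 647 and 569 in si-SAM68 libraries. The groups overlapped and si-CTRL replicate 3 stood above the rest, with a log2 fold change of -0.26 (95% interval -0.61 to 0.09, adjusted p = 0.32 from limma). The NFKBIB locus overlaps that of SIRT2 in the annotation, and whether strand was used in counting is not given in the sources used here, so that reads may be shared. Without si-CTRL replicate 3 the log2 fold change of NFKBIB was -0.063. None of the 3 IkB genes passed the threshold with all libraries.

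Among the subunits, RELB (locus GSHG0015006, chromosome 19, 45504690 to 45541456) was the one that passed the test. RELB encodes the partner of p52 in the non-canonical branch of the pathway, which runs through MAP3K14 and the processing of p100. Its counts were 1677, 1613 and 1627 in si-CTRL and 1302, 1387 and 1301 in si-SAM68 libraries, and the spread within each group was small (SD 34.0 and 49.5, n = 3). The groups did not overlap, and the log2 fold change was -0.30 (SE 0.0795, 95% interval -0.48 to -0.12, adjusted p = 0.0401 from limma), or 1.23-fold lower. The call was close to the threshold: with the replicate number as a block the adjusted p-value was 0.0655 (limma), and it was between 0.0839 and 0.139 when any library other than si-CTRL replicate 1 was left out. The log2 fold change itself stayed between -0.33 and -0.28 over these fits.

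RELA (locus GSHG0005905, chromosome 11, 65421066 to 65430620), which encodes p65, the main activating subunit of the canonical branch, had 8788, 5487 and 5382 in si-CTRL and 4469, 4368 and 4065 in si-SAM68 libraries. All si-SAM68 libraries were lower, and si-CTRL replicate 1 was 1.62 times the mean of the other two. RELA had a log2 fold change of -0.57 (SE 0.164, 95% interval -0.94 to -0.20, adjusted p = 0.0538 from limma), just short of the threshold. It was past the threshold with the replicate block (adjusted p = 0.0375, limma) and without si-CTRL replicate 1, where the log2 fold change was -0.34 (adjusted p = 0.00654, limma). Over all 18 alternatives of the fit, adjusted p-values for RELA lay between 0.00223 and 0.199. The RELA locus lies within the span of a large locus that holds NEAT1 and MIR612, and reads shared between them cannot be told apart.

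NFKB2 (locus GSHG0003646, chromosome 10, 104153867 to 104162286), the gene of p100 and p52, had 9784, 9211 and 9786 in si-CTRL and 8437, 8975 and 8619 in si-SAM68 libraries. No si-SAM68 library reached the si-CTRL range, but the difference was small, with a log2 fold change of -0.14 (95% interval -0.30 to 0.01, adjusted p = 0.218 from limma). NFKB1 (locus GSHG0022759, chromosome 4, 103422486 to 103538459), the gene of p105 and p50, overlapped between the groups, with 5885, 5579 and 5349 in si-CTRL and 5181, 5606 and 5499 in si-SAM68 libraries. Its log2 fold change was -0.05, and its 95% interval of -0.21 to 0.12 was narrow.

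REL (locus GSHG0016485, chromosome 2, 61108630 to 61155289), the gene of c-Rel, had 429.9, 442 and 429.7 in si-CTRL and 446, 570.3 and 551 in si-SAM68 libraries. It was the only subunit with a higher mean in si-SAM68 cells, and its lowest si-SAM68 library, replicate 1, lay just above the si-CTRL range. The log2 fold change of 0.26 had a 95% interval of -0.0029 to 0.52 and an adjusted p-value of 0.190 (limma). Within a library, the ratio of REL to RELA, also chosen after the values were seen, was 0.0489, 0.0805 and 0.0798 for si-CTRL and 0.0999, 0.131 and 0.135 for si-SAM68. These groups did not overlap, and si-CTRL replicate 1, in which RELA was high, had the lowest ratio.

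**Figure D3:**
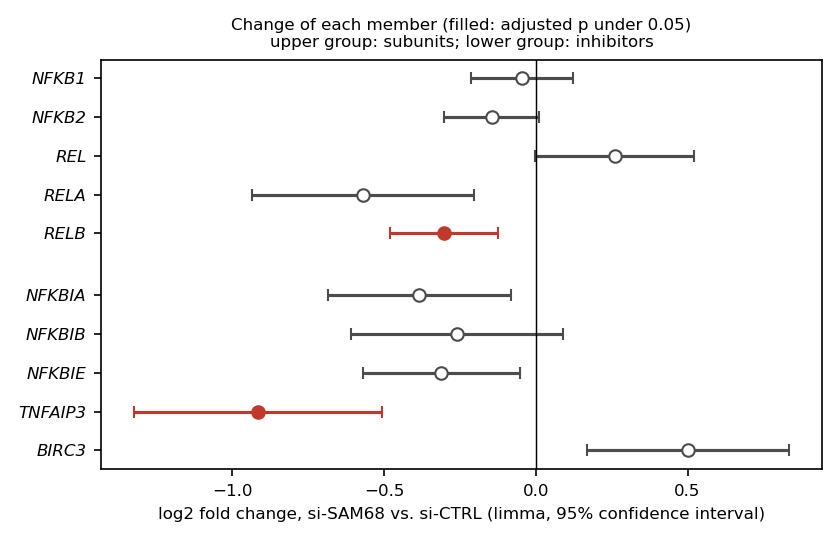
Log2 fold change of each member in si-SAM68 vs. si-CTRL cells (x axis) with its 95% confidence interval from limma, subunits above and inhibitors below. TNFAIP3 and RELB (filled) have an adjusted p-value under 0.05. The intervals of RELA, NFKBIA and NFKBIE also lie below 0 and that of BIRC3 above 0. Those of NFKB1, NFKB2, REL and NFKBIB span 0.

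The high value of si-CTRL replicate 1 was not shared by all members. It was 1.6 times the mean of replicates 2 and 3 in TNFAIP3, 1.62 in RELA and 1.46 in NFKBIA, but between 0.824 and 1.30 in the others. Over all loci tested, 6.74% had a ratio above 1.4. Its part in the differences was not tested beyond leaving the library out.

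Among the 5 loci whose counts followed TNFAIP3 most closely over the 6 libraries, of 12927 compared, were SIPA1L1, MERTK, GPR3 and C3orf67, each with a Pearson's r of 0.996 on log2 values. These 4 were highest in si-CTRL replicate 1 and lowest in si-SAM68 replicate 1, as TNFAIP3 was. MERTK, which encodes a receptor tyrosine kinase, had 205, 144 and 149 in si-CTRL and 101, 122 and 114 in si-SAM68 libraries. It did not pass the test (adjusted p = 0.0769 from limma). The points share the libraries and the group difference, and the likeness is given as a description.

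Target genes of NF-kB that passed the test were all lower. Of 40 genes on a list of NF-kB targets, 35 were tested, 16 fell and 0 rose in si-SAM68 cells (limma, adjusted p-value under 0.05). That is 45.7% of the genes tested, against the 6.23% of all loci called lower, and the median log2 fold change over the list was -0.24. The list, like the other lists and the members, was chosen with earlier results of these data known, so its shares only describe these genes. On the recovered reads, edgeR and DESeq2 each called 16 targets lower and 0 higher, and called 1167 and 1541 of all loci lower. The 16 were BCL2A1, CCL2, CCL5, CD83, CSF2, CXCL1, CXCL2, CXCL3, CXCL8, ICAM1, IL1A, IL1B, IL6, LIF, PTGS2 and SOD2. The count was 7 with si-SAM68 replicate 1 left out and 6 without replicate 3 of that group, fits in which the loci called lower also dropped from 1175 to 555 and 402, and between 11 and 17 when another library was left out. Without si-SAM68 replicate 2 the loci called lower dropped to 535 and the targets called lower were 15. Without si-CTRL replicate 1, 1 target, CSF1, was called higher. NUAK2 had a higher mean in si-SAM68 cells with all libraries, at an unadjusted p-value of 0.0467 and an adjusted p-value of 0.179 (limma).

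**Figure D4:**
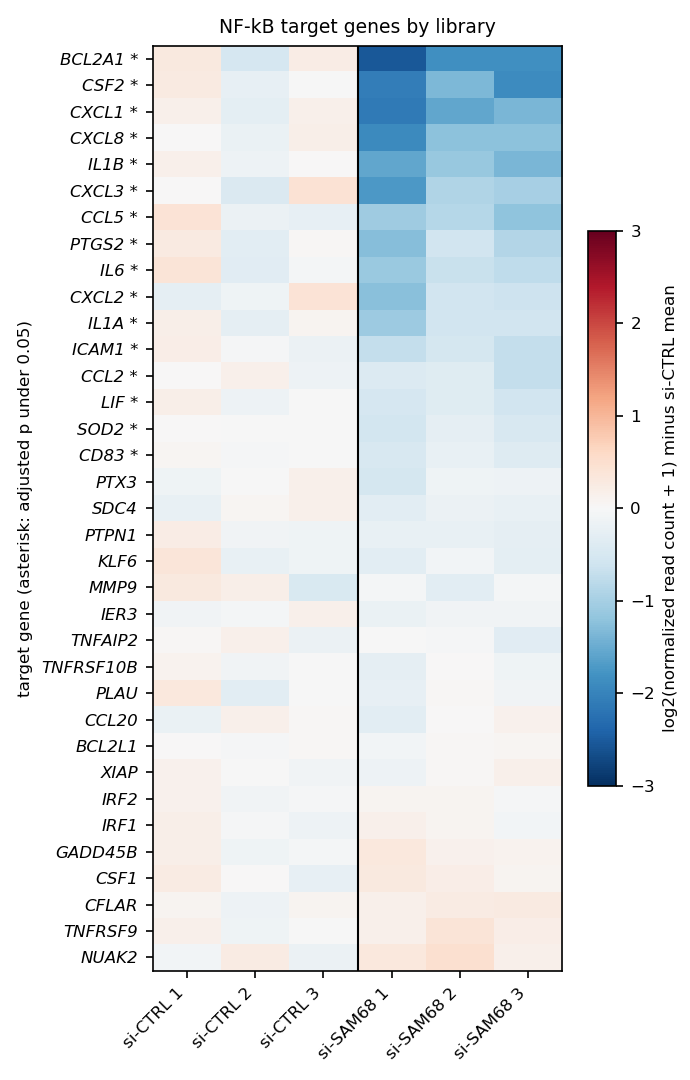
Level of the 35 tested NF-kB target genes (rows, ordered by log2 fold change) in each library (columns), as log2(normalized read count + 1) minus the mean of the si-CTRL libraries (colour, blue lower and red higher). The 16 genes marked with an asterisk have an adjusted p-value under 0.05, and all 16 are lower in si-SAM68 cells.

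Several cytokine and chemokine genes were among the largest decreases. CXCL8, which encodes interleukin-8, a neutrophil attractant, had 16678, 14504 and 18765 in si-CTRL and 4404, 7080.4 and 7036 in si-SAM68 libraries. On the log2 scale it fell by 1.46 (SE 0.172, adjusted p = 0.00118 from limma), so that CXCL8 was 2.74-fold lower. IL1B, the gene of interleukin-1 beta, had 3773, 3031 and 3413 in si-CTRL and 1158, 1547 and 1310.3 in si-SAM68 libraries, with a log2 fold change of -1.35 (SE 0.121, adjusted p = 0.000315 from limma). In both genes the lowest si-CTRL library was well above the highest si-SAM68 library. CXCL1, a chemokine gene, fell by 1.67 on the log2 scale (adjusted p = 0.00107, limma), and CSF2, the gene of GM-CSF, fell by 1.77 (adjusted p = 0.00152, limma). CCL5, the gene of RANTES, fell by 1.05 (adjusted p = 0.00844, limma). Each of these had all si-SAM68 libraries below all si-CTRL libraries.

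BCL2A1, an anti-apoptotic gene of the BCL2 family, had the largest change of the list. Its counts were 1424, 831 and 1356 in si-CTRL and 199, 325 and 324 in si-SAM68 libraries, a log2 fold change of -2.08 (SE 0.234, adjusted p = 0.00101 from limma). ICAM1, an adhesion molecule gene whose locus also holds ICAM4, fell by 0.65 on the log2 scale (adjusted p = 0.00588, limma). SOD2, the gene of mitochondrial superoxide dismutase, fell by 0.44 (adjusted p = 0.0121, limma). These were smaller changes than those of the 5 cytokine and chemokine genes above.

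The 3 most abundant target genes did not pass the test. PTX3, the gene of pentraxin 3, had 67691, 72930.2 and 82236 in si-CTRL and 50974, 67386 and 66810.5 in si-SAM68 libraries (log2 fold change -0.27, 95% interval -0.54 to -0.01, adjusted p = 0.177 from limma). SDC4, the gene of syndecan 4, and PLAU, the gene of urokinase, had log2 fold changes of -0.24 and -0.10, with 95% intervals of -0.46 to -0.02 and -0.42 to 0.22. The list is thus not uniform: 19 of the 35 tested genes were not called. Another 5 targets, CXCL5, CXCL10, LTB, TNF and VCAM1, had a mean under 10 and were not tested, and TNF itself had at most 11.6 in any library. A kB match lay in the promoter window of 5 of the 13 lower targets with such a window and of 7 of 14 targets that were not called. Among all genes with such a window the share was 13.3%.

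Upstream of the 10 genes, calls went both ways. Of 37 receptors, adaptors and kinases listed, 35 were tested, of which 4 rose and 2 fell, with a median log2 fold change of 0.06 (limma). The shares of 11.4% and 5.71% stand beside 4.47% and 6.23% of all loci. Without si-SAM68 replicate 2 or replicate 3 only 1 was called lower, and 3 were called higher when any 1 si-SAM68 library was left out. IL1RAP, the co-receptor of interleukin-1, rose from 2666 ± 64.8 to 4105 ± 231 (SD, n = 3; log2 fold change 0.62, adjusted p = 0.00148 from limma). IL1R1, the receptor that pairs with it, fell from 1148 ± 12.6 to 798 ± 95.3 (log2 fold change -0.53, adjusted p = 0.0127). The interleukin-1 receptor chains therefore moved in opposite directions.

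TLR3, a receptor of double-stranded RNA, rose from 635 ± 22.7 to 1038 ± 46.4 (log2 fold change 0.71, adjusted p = 0.00166 from limma). MAP3K14, the gene of the NF-kB-inducing kinase of the non-canonical branch, rose with a log2 fold change of 0.48 (adjusted p = 0.0101, limma), and BCL10, an adaptor gene, with one of 0.42 (adjusted p = 0.0310, limma). BCL10 passed in 14 of 18 alternatives, and with 1 library left out its adjusted p-value reached 0.137 (limma). RIPK1, which encodes the kinase that carries ubiquitin chains at the TNF receptor, fell, with 2811, 2219.9 and 2295 in si-CTRL and 1717, 1723 and 1614 in si-SAM68 libraries (log2 fold change -0.53, adjusted p = 0.0119 from limma). The TNF receptor gene TNFRSF1A overlapped between the groups (log2 fold change -0.06, 95% interval -0.33 to 0.21). So did PARP1, the gene of the enzyme through which DNA damage reaches NF-kB (-0.04, 95% interval -0.19 to 0.12). IRAK1, a kinase gene of interleukin-1 signalling, had a log2 fold change of -0.20 with an adjusted p-value of 0.0951 (limma). The genes of the IkB kinase complex, CHUK, IKBKB and IKBKG, were not called, with log2 fold changes of 0.08, 0.07 and -0.05, and IKBKE was not analysed here.

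Among 23 other IkB proteins and negative regulators, all of them tested, 3 fell and 1 rose (limma), or 13.0% and 4.35% beside 6.23% and 4.47% of all loci. The gene that rose was not called when si-CTRL replicate 2 or 3 or si-SAM68 replicate 2 or 3 was left out. NFKBIZ, an atypical IkB protein of the nucleus, had 1127, 924 and 1203 in si-CTRL and 469, 682 and 620.0 in si-SAM68 libraries, without overlap. Its log2 fold change was -0.89 (SE 0.151, adjusted p = 0.00713 from limma), close in size to that of TNFAIP3. ZC3H12A, the gene of an RNase that degrades cytokine mRNAs, whose locus also holds MIR6732, fell by 0.73 on the log2 scale (adjusted p = 0.00790, limma). TNIP1, the gene of a protein that binds A20, had 11509.7, 8133 and 8776 in si-CTRL and 5959, 7194 and 6416 in si-SAM68 libraries, with a log2 fold change of -0.53 (adjusted p = 0.0293; 0.0561 with the replicate block, limma). Like TNFAIP3, it was highest in si-CTRL replicate 1.

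ITCH, a ubiquitin ligase gene, was the one that rose (log2 fold change 0.32, adjusted p = 0.0226 from limma). TAX1BP1 and RNF11, which with ITCH encode partners of A20, had log2 fold changes of 0.16 and 0.26, with adjusted p-values of 0.232 and 0.274 (limma). Within this group the A20 gene and TNIP1 fell while ITCH rose. NFKBIZ, ZC3H12A and TNIP1 are, like TNFAIP3, known to be induced by NF-kB, but so is BIRC3, whose log2 fold change was 0.50. Of the 23 genes of this list 19 were not called, BCL3 and TRAF1 among them (log2 fold changes -0.02 and -0.14). Whether NF-kB had a part in these differences was not tested.

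**Figure D5:**
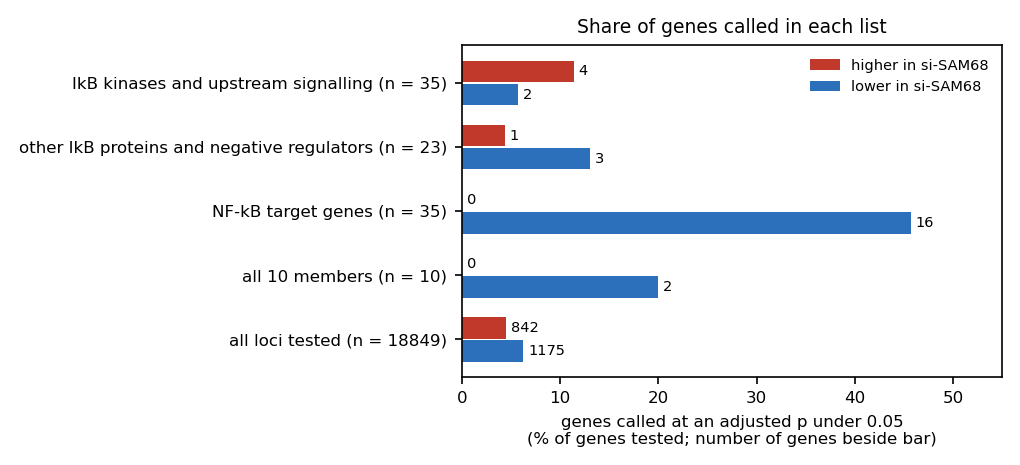
Share of tested genes called higher (red) or lower (blue) in si-SAM68 cells at an adjusted p-value under 0.05 (x axis, %), with the number of genes beside each bar, for the pathway lists, the 10 members and all loci tested. Target genes stand at 45.7% lower and 0 higher, against 6.23% and 4.47% of all loci. Lists and members were chosen with earlier results of these data known, so the shares are a description.

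Genes that respond to transfected RNA were also examined, since both groups received siRNA. Of 12 interferon response genes listed, 10 were matched to a locus by symbol and 8 were tested. Of these 8, 0 rose and 1 fell, MX1 (log2 fold change -0.70, adjusted p = 0.0147 from limma). That is 12.5% lower, beside 6.23% of all loci. The summed level of the 10 listed loci was 40862 to 52428 in si-CTRL and 39170.4 to 47588 in si-SAM68 libraries, and these ranges overlapped. IFIT1, IFIT2 and IFIT3, genes induced by double-stranded RNA, had log2 fold changes of 0.11, 0.04 and 0.02, and the groups overlapped in each.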

How the data were processed

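RNA from MDA-MB-231 cells was sequenced as stranded mRNA libraries, 3 of si-CTRL and 3 of si-SAM68. The authors deposited 1 signal per locus of the hg19 FAST DB annotation and library, that is its reads scaled by a DESeq2 size factor. The submitters' processing notes name STAR 2.4.0, FastQC, Picard, SAMtools and DESeq2, and the counter and its strand setting are not given in the sources used here. Values were whole multiples of what 1 read is worth in the library (tolerance 0.01) for 100% of the entries checked. Entries at 0 and those with the highest read counts were left out of this check. Reads were recovered by rounding to the nearest multiple.

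Loci with a mean of at least 10 were tested (18849 of 74852, of which 41493 were at 0 in all libraries) on log2(signal + 1) with limma 3.58.1 (lmFit and eBayes with trend, R 4.3.3), with Benjamini-Hochberg adjustment over all tested loci. On the recovered reads, edgeR 4.0.16 (quasi-likelihood) called 859 loci higher and 1167 lower, against 842 and 1175 by limma, and DESeq2 1.42.0 called 1248 and 1541. The main fit held the group only, and pairing by replicate number was run as an alternative, the replicate block. Deviations from the group means correlated between libraries of the same number (r = 0.105, 0.231 and 0.125) and at -0.125 to 0.00687 otherwise. Such deviations cancel within a group, so these r values depend on one another. The labels do not say what the replicate number stands for.

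The members and lists were chosen with earlier results of these data known. Genes named were the members, KHDRBS1, up to 8 called genes without overlap and the 3 most abundant of each pathway list, and the 5 loci most like the member with the smallest adjusted p-value, of which 1 is not reported here. Other genes are named only to complete a count or a pathway step. Promoters came from RefSeq (GRCh38.p14) and lengths from GENCODE transcripts. Alternatives were pseudocounts of 0.1 and 5, no filter, a minimum mean of 50, TMM, quantile normalization, no trend, a robust trend, the replicate block, both count tools, the study's thresholds and leaving out each library.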

Additional observations from a re-analysis of the deposited data

How the results depend on the processing

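Every member kept the sign of its log2 fold change under every alternative run, as did each gene of the pathway lists that was called, whereas 23 of the 93 pathway genes, none of them called, had both signs over the alternatives, CHUK, IKBKG, TNFRSF1A and PLAU among them. Without a trend in the prior variance, loci called higher went from 842 to 349 and loci called lower from 1175 to 550, members called lower from 2 to 0, and genes of the 3 pathway lists from 5 to 3 higher and from 21 to 9 lower. With the thresholds of the study, 534 loci and 2 pathway genes were higher, and 911 loci, 14 pathway genes and 1 member were lower. With no filter 1 member was called lower. DESeq2 called 4 members lower and 1 higher, and over all loci 1541 lower and 1248 higher, and a minimum mean of 50 also gave 1 higher. With a single library left out, members called lower ranged from 0 to 4 and members called higher from 0 to 1. Over the same fits loci called higher ranged from 223 (without si-SAM68 replicate 3) to 1322 (without si-CTRL replicate 1) and loci called lower from 402 to 1517, while pathway genes ranged from 3 to 7 higher and from 9 to 23 lower. The cause of these shifts was not tested. KHDRBS1 stayed between -4.66 and -4.56 on the log2 scale. For the lists singly, the fit without a trend gave 7 lower targets, 0 lower upstream genes and 0 higher regulators, and the study's thresholds gave 2 higher and 0 lower upstream genes and 0 higher regulators.

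With the replicate number as a block, pairing libraries of the same number, 2 members were called lower, TNFAIP3 and RELA. RELB was lost and RELA gained, TNIP1 and CD83 (adjusted p = 0.0501, limma) were lost, and no other call among the members and the 3 pathway lists changed.

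Of the 10 members, NFKB1, NFKB2, REL and NFKBIB passed the threshold under none of 18 alternatives, NFKBIA and NFKBIE under 1 each, BIRC3 under 4, RELA and RELB under 9 and TNFAIP3 under 15. TNF and the other targets with a mean under 10 were not tested.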
